A study of Mus musculus with 17 samples.

Results

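The genes described here are 10 markers of the cells that line the conducting airways, read in mouse lung libraries sorted for alveolar epithelial type 2 (AT2) cells. They are 7 products of airway secretory cells (Scgb1a1, Scgb3a1, Scgb3a2, Cyp2f2, Bpifa1, Muc5b and Reg3g), the ciliated-cell factor Foxj1, and the basal-cell genes Krt5 and Trp63. They were chosen by name out of the 43430 gene IDs of each count table, and all 10 were found in both tables. The series holds 17 RNA-seq libraries from C57BL/6J mice aged 2 months. In the first experiment mice without lung injury received either vehicle (4 libraries) or ISRIB (4 libraries), which reverses the brake on translation imposed by the integrated stress response. Cells were taken 24 h later. Those 8 libraries were made from 3 ng of RNA with a poly(A) kit, and the titles of the vehicle libraries say saline. In the second experiment cells came from uninjured mice labelled naive (4 libraries) or from mice 14 days after bleomycin (5 libraries), an agent that injures the lung and is used to produce fibrosis. Those 9 libraries were made from 0.35 ng with a stranded total-RNA kit, and all 9 titles say saline. The labels give no dose, no sorting gate, and no word on whether a library is 1 animal or a pool, so every p below measures only the spread between these libraries.

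Conducting airways carry 3 main epithelial cell types. Club and other secretory cells release secretoglobins, mucins and host-defence proteins and hold detoxifying cytochrome P450 enzymes. Ciliated cells move mucus with motile cilia whose genes are switched on by Foxj1 together with RFX factors, and basal cells with keratin 5 and p63 are the stem cells of the larger airways. At the junction of the smallest airways and the alveoli, cells holding both the club-cell product of Scgb1a1 and the surfactant gene Sftpc are known, and after lung injury cells with airway genes can appear among alveoli.

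Total counts per library were 10493574 to 15727139 with the poly(A) kit, and the total-RNA kit gave 3295257 to 6333166. The sorted identity was checked on Sftpc, the surfactant gene that defines AT2 cells, which had the highest level per kilobase of exon of all 21551 protein-coding genes in every group. Some libraries stood apart. Bleomycin 1 and bleomycin 2 had the lowest Sftpc, at 19350.0 and 23420.0 CPM (read counts scaled to 1000000 per effective library), against 29470.0 to 38490.0 in bleomycin 3 to 5 and 36810.0 to 42990.0 in the naive libraries. ISRIB 2 and ISRIB 4 had 99810.0 and 99510.0 CPM of Sftpc, against 107200.0 to 111300.0 in the other 6 poly(A) libraries. Values without these libraries, an alternative chosen after seeing the data, are given beside the results. In bulk RNA, fewer cells of a type and less RNA per cell cannot be told apart.

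The markers differed widely in level. Compared per kilobase of exon (CPM per kb), Scgb1a1 ranked 6 among protein-coding genes in the vehicle libraries, at 7265 ± 387 CPM per kb (SD, n = 4), against 105100.0 ± 1630.0 for Sftpc. Cyp2f2, the P450 by which club cells activate naphthalene, followed at rank 104 with 245 ± 16.7 CPM per kb, and Scgb3a2, a secretoglobin of the distal airway, at rank 334 with 89.3 ± 4.63. Scgb3a1 (9.01 ± 1.80) and Bpifa1 (8.00 ± 5.43) did not differ beyond their spread. Foxj1 lay at 3.09 ± 0.35, above Reg3g at 0.59 ± 0.39 and Muc5b at 0.44 ± 0.04, a pair that overlapped. Trp63 had 1 count and Krt5 none over the 4 vehicle libraries. In the naive libraries of the total-RNA kit Scgb1a1 ranked 12 with 1270.0 ± 432 CPM per kb, Cyp2f2 ranked 384 with 48.4 ± 8.28 and Scgb3a2 ranked 2129 with 12.8 ± 3.70. Kit, RNA input and depth differ between the 2 experiments, so levels were not compared across them.

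Scgb1a1 lies on chromosome 19 from 9083636 to 9087958 (minus strand, GENCODE M21 on GRCm38) with 476 exon bases. Counts of Scgb1a1 per 1000 counts of Sftpc were 30.2 to 33.4 in the vehicle libraries and 9.67 to 20.9 in the naive ones. Cyp2f2 (chromosome 7, 27119909 to 27133660) had 133 to 166 counts per 1000 of Scgb1a1 over the 8 poly(A) libraries and 133 to 227 over the 9 total-RNA libraries. On the opposite strand 274 of the 2025 exon bases of Cyp2f2 are shared with the gene model Gm15883, and how strand was set in the counting was not stated in the sources at hand, so reads of the 2 genes may be mixed.

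After ISRIB none of the 8 airway markers that passed the filter on low counts was called. Over all 12054 genes tested, 2.2% were called (265 genes, edgeR's quasi-likelihood test, adjusted p under 0.05), and for 8.65% the groups did not overlap. The groups overlapped for all 8 markers. At an unadjusted edgeR p under 0.05 there were 3 of the 8 (Scgb3a1, Cyp2f2 and Reg3g), and DESeq2 and limma-voom called 0. The share of all genes at that unadjusted level is not given here, so such counts have no background beside them. Without the filter on low counts edgeR called 4, with Bpifa1 (adjusted p 4.37e-12) and Reg3g (0.0370) higher, and Scgb1a1 (0.00146) and Cyp2f2 (0.0164) lower, at nearly the same fold changes. The SE of all 4 was smaller in that fit, at 0.11 against 0.45 for Bpifa1 and 0.055 against 0.13 for Scgb1a1.

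Scgb1a1, the main secreted protein of club cells, stood at 3581, 3643, 3357 and 3252 CPM in vehicle 1 to 4. In ISRIB 1 to 4 it stood at 3566, 2742, 3476 and 1956 CPM. The groups overlap: ISRIB 1 and ISRIB 3 lay within the vehicle range, and ISRIB 2 and ISRIB 4 below all vehicle libraries. Mean levels were 3458 ± 184 and 2935 ± 749.9 CPM (SD, n = 4 each). On the log2 scale the difference was -0.24 (SE 0.13, edgeR adjusted p 0.385). Without ISRIB 2 and ISRIB 4 the value was 0.03 (adjusted p 0.882).

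Cyp2f2 had the same 2 libraries lowest. Its levels were 486, 546, 468 and 488 CPM in vehicle 1 to 4 and 492, 442, 462.5 and 324 in ISRIB 1 to 4. ISRIB 4 was the lowest library and 3 of the 4 ISRIB libraries lay below every vehicle library. The log2 fold change was -0.21 (SE 0.09, edgeR adjusted p 0.289), and it was -0.092 without ISRIB 4 and -0.056 without ISRIB 2 and 4 (adjusted p 0.777). Scgb3a2 did not share this order, with 75.6 to 84.6 CPM in the vehicle libraries and 90.5, 71.9, 76.8 and 73.2 in ISRIB 1 to 4. Its log2 fold change was -0.0061 (SE 0.07, adjusted p 0.980), and its sign turned with the scaling and without ISRIB 2 and 4 (0.10).

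**Figure D1:**
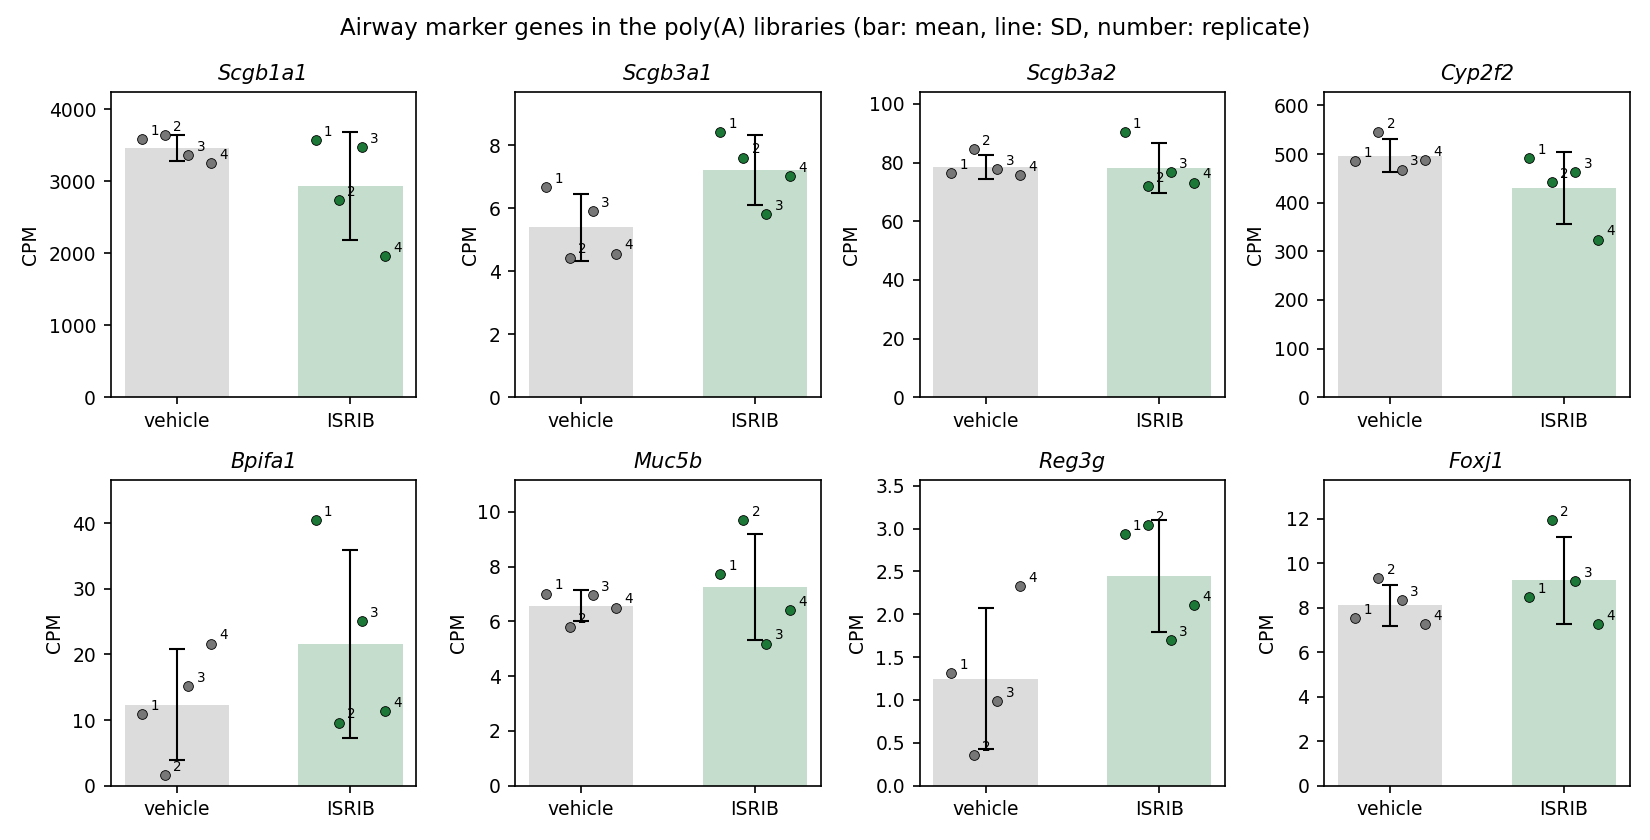
Level in CPM (vertical axis, linear from 0) of the 8 airway markers tested in the poly(A) libraries, for vehicle and ISRIB; bars are means, lines SD and points the numbered libraries (n = 4 each). ISRIB 4 is lowest for Scgb1a1 (1956 CPM) and Cyp2f2 (324 CPM), while every gene shown overlaps between the groups.

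Other values moved with ISRIB 2 and ISRIB 4. The summed level of 14 distal secretory genes of inflammation was 3452 and 3965 CPM there, against 2850.0 and 2856 in ISRIB 3 and ISRIB 1 and 2654 to 3051 in the vehicle libraries. Macrophage and monocyte markers (14 genes) summed to 31.3 and 32.0 CPM there and to 19.7 to 22.8 in the other 6. Most of each sum was the highest gene, Plet1, at 21.5 and 23.9 CPM there and 11.9 to 14.8 in the other 6. C1qa was at 0 in all 8. Genes with under 1000 exon bases deviated from the vehicle mean by a median of -0.04 (log2) in ISRIB 4 and -0.0017 in ISRIB 2. The part of these values in the Scgb1a1 levels was not tested.

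The 4 host-defence and mucosal markers had higher means after ISRIB without being called. Reg3g, a bactericidal lectin that inflammation induces in epithelia, counted 15, 4, 15 and 24 reads in vehicle 1 to 4 and 46, 38, 19 and 24 in ISRIB 1 to 4. In CPM these were 1.31, 0.362, 0.983 and 2.33 against 2.94, 3.04, 1.70 and 2.11, so ISRIB 1 and 2 lay above all vehicle libraries and the others within their range. The log2 fold change was 1.01 (SE 0.38, edgeR adjusted p 0.183), and 0.95 without ISRIB 2 and 4. Bpifa1 encodes a secreted antimicrobial protein of the upper airway. It varied 13.3-fold among the vehicle libraries alone, from 1.63 CPM in vehicle 2 through 10.96 and 15.2 in vehicle 1 and 3 to 21.6 in vehicle 4. The ISRIB libraries had 40.4, 9.61, 25.0 and 11.3 CPM, overlapping the vehicle libraries. The log2 fold change was 0.83 (SE 0.45, adjusted p 0.389). It was 0.30 without ISRIB 1 and 1.42 without ISRIB 2 and 4 (adjusted p 0.0873).

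Scgb3a1, a secretoglobin of larger airways, stood at 6.66, 4.43, 5.90 and 4.56 CPM after vehicle and at 8.43, 7.61, 5.81 and 7.02 after ISRIB. ISRIB 3 alone lay within the vehicle range, and the log2 fold change was 0.42 (SE 0.17, edgeR adjusted p 0.219), and 0.41 without ISRIB 2 and 4. Muc5b, the gel-forming mucin of mucociliary clearance, had 5.79 to 7.01 CPM after vehicle and 7.73, 9.69, 5.19 and 6.41 after ISRIB. Its log2 fold change was 0.15 (SE 0.17, adjusted p 0.744) and was -0.02 without ISRIB 2 and -0.0027 without ISRIB 2 and 4.

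Promoter letters are shown for the 2 inducible host-defence markers because, of the 5 markers matched in the RefSeq promoter table of GRCm38.p6 (Bpifa1, Reg3g, Cyp2f2, Scgb3a1 and Krt5), they are the ones with a TATAAA box in the last 60 bases before the annotated start. Those letters, read on the gene's own strand, occur in 3.44% of all 27025 genes of that table. Capitals mark TATAAA, which begins 29 bases before the start of Bpifa1 (chr2:154142820-154142879, plus strand) and 27 before that of Reg3g (chr6:78468875-78468934, minus strand).
Bpifa1: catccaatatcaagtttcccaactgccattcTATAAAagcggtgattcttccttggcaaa
Reg3g: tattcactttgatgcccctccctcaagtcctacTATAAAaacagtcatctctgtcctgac

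The ciliated-cell factor Foxj1 was not called in the ISRIB experiment. It counted 86, 103, 127 and 75 reads in vehicle 1 to 4 and 133, 149, 103 and 83 in ISRIB 1 to 4, which is 7.28 to 9.32 CPM and 7.28 to 11.9 CPM. ISRIB 2 lay above the vehicle range. The log2 fold change was 0.18 (SE 0.15, edgeR adjusted p 0.604), 0.036 without ISRIB 2 and 0.12 without ISRIB 2 and 4. Of 31 other ciliated-cell genes tested, 0 were called higher and 1 lower, where 1.1% of all genes were called in each direction. Their median log2 fold change was 0.11, beside -0.00014 over all genes. The gene that fell was Tppp3, a tubulin-binding protein, at 86.6 ± 8.47 against 64.3 ± 2.29 CPM (log2 fold change -0.43, SE 0.07, adjusted p 0.00384), with no overlap between the groups.

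The 2 basal-cell genes were near zero. Krt5 had 0 reads in 7 of the 8 poly(A) libraries and 1 in ISRIB 3, and a count of 0 allows up to 0.191 to 0.286 CPM in these libraries, counting error only. Trp63, the p63 gene, had 1 read in vehicle 4, 4 in ISRIB 2, 2 in ISRIB 3 and none in the other 5. Both fell below the filter, and no fold change is given. Of 17 other basal genes 6 had no read in any library, among them Krt14 and Krt17. Of the 4 tested, Perp, a desmosomal protein not limited to basal cells, was lower after ISRIB, at 46.7 ± 2.46 against 34.7 ± 5.78 CPM (log2 fold change -0.43, SE 0.10, edgeR adjusted p 0.0271). Among 27 other secretory genes 1 was called, the haptoglobin gene Hp, lower at 1073 ± 47.3 against 882 ± 80.1 CPM (log2 fold change -0.28, SE 0.06, adjusted p 0.0255). The calls of Perp and Hp each ended without vehicle 1, vehicle 2, vehicle 4, ISRIB 2 or ISRIB 4 (adjusted p 0.0538 to 0.100 for Perp and 0.0599 to 0.0772 for Hp). Without ISRIB 2 and 4 together Perp was -0.24 (adjusted p 0.170) and Hp -0.18 (0.155). The most abundant of that list, the carbonyl reductase gene Cbr2, had 3924 ± 177 and 3927 ± 279 CPM.

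Among the remaining lists of cell types, ISRIB gave 3 calls, all lower. They were Sprr1a, a cornified-envelope protein (14.7 ± 1.89 to 9.17 ± 2.27 CPM), the AT2 transcription factor Etv5 (964 ± 37.3 to 793 ± 23.3 CPM), and the chitinase-like macrophage gene Chil3, named after its values were seen (1.24 ± 0.24 to 0.349 ± 0.277 CPM). No gene of the neuroendocrine, tuft, neutrophil, lymphocyte, endothelial, fibroblast, mesothelial, erythroid or alveolar type 1 lists was called by edgeR, and of these lists the neutrophil and erythroid ones had no gene above the filter. The neuroendocrine, lymphocyte, endothelial and alveolar type 1 lists each had 1 gene with an unadjusted p under 0.05. DESeq2 called 1 neuroendocrine gene higher and 0 macrophage genes, with no adjusted p for Chil3, and limma-voom called 0 genes of the 9 lists without a call. The call of Sprr1a ended without vehicle 1, 2 or 3 or ISRIB 1 (adjusted p 0.0573 to 0.0823). That of Chil3 ended with the replicate block (0.0705), without any 1 library other than ISRIB 3 (0.0736 to 0.123), and without ISRIB 2 and 4 (0.207). The neuroendocrine list summed to 6.78 to 10.6 CPM after vehicle and 10.9 to 13.2 after ISRIB, with Cplx2 the highest. The most abundant genes of the other lists were not called. They were Wfdc2, a secreted airway protein (1034 ± 10.5 and 1158 ± 64.3 CPM), the tuft-cell kinase gene Dclk1 (46.8 ± 5.62 and 44.9 ± 2.36), the alveolar type 1 receptor gene Ager (1439 ± 63.3 and 1389 ± 53.3), the B-cell gene Cd79b (19.9 ± 1.00 and 16.5 ± 0.77), the endothelial Egfl7 (8.82 ± 1.12 and 9.75 ± 3.39), the collagen gene Col3a1 (7.52 ± 1.75 and 6.97 ± 2.73) and the mesothelial Upk3b (4.87 ± 1.58 and 3.74 ± 1.52).

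Likeness was read as the correlation of log2 CPM deviations from group means over the 8 poly(A) libraries, among 9292 genes. It is a description over few points that share library and depth. Nearest to Scgb1a1 were the ribosomal protein genes Rps9 (r = 0.97) and Rps21 (0.96), Ost4 (0.96), Gnmt (0.96) and Cops7b (0.96). Among the markers Cyp2f2 had r = 0.94 with Scgb1a1 and Scgb3a2 0.64, while Reg3g had -0.11 and Muc5b -0.09. Nearest to Reg3g were Cfap298 (r = 0.98), Mmadhc (0.97), Prrg2 (0.96), Ddit4 (0.95) and Nme1 (0.95), and of the markers Bpifa1 (0.72).

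After bleomycin 1 of the 6 airway markers tested was called, Foxj1, which rose. Over all 11223 genes tested 20.5% were called, 11.2% higher and 9.31% lower. Foxj1, Scgb3a1 and Muc5b, 3 of the 6, had an unadjusted edgeR p below 0.05. The share of all genes at that level is not given here and is at least the 20.5% called. Bpifa1, Reg3g, Krt5 and Trp63 fell below the filter. The transcription factor Foxj1 (chromosome 11, 116330704 to 116335399, minus strand) counted 13, 16, 12 and 7 reads in naive 1 to 4 and 81, 214, 46, 23 and 45 in bleomycin 1 to 5. That is 4.36, 3.42, 3.60 and 2.09 CPM against 21.4, 38.6, 7.12, 7.12 and 7.13 CPM. No bleomycin library came down to the naive range, and bleomycin 1 and 2 lay far above the other 3. The means were 3.37 ± 0.95 (SD, n = 4) and 16.3 ± 13.9 CPM (n = 5). On the log2 scale the rise was 2.27 (SE 0.52, edgeR adjusted p 0.00440). Limma-voom gave 1.87 (adjusted p 0.0987), and edgeR without bleomycin 1 and 2 gave 1.08 (adjusted p 0.0537), so the call ended under both.

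**Figure D2:**
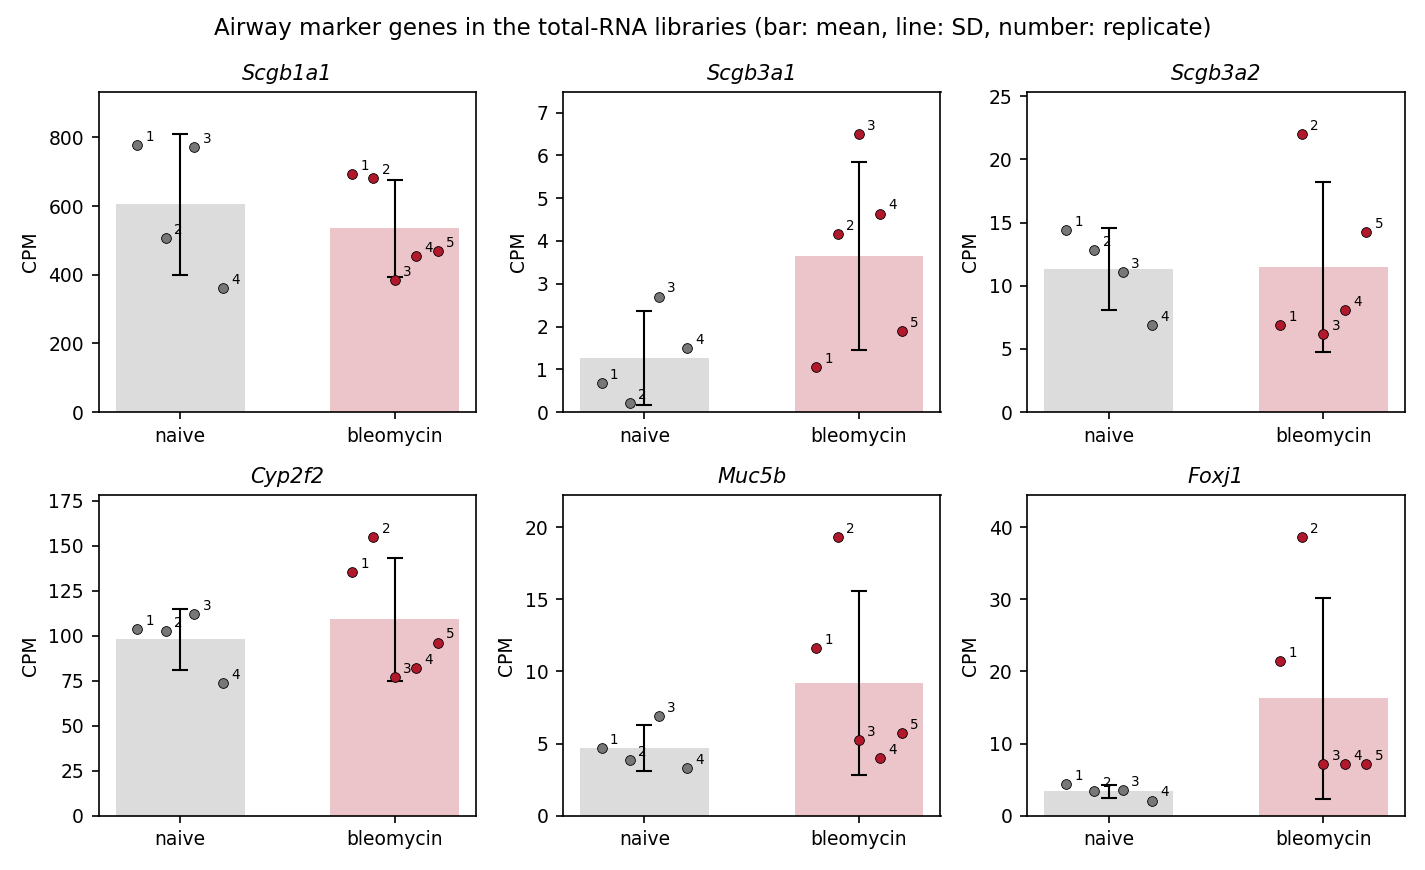
Level in CPM (vertical axis, linear from 0) of the 6 airway markers tested in the total-RNA libraries, for naive (n = 4) and bleomycin (n = 5); bars are means, lines SD and points the numbered libraries. Foxj1 is above all naive libraries in every bleomycin library, with 38.6 CPM in bleomycin 2, and the other 5 genes overlap.

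Other genes of motile cilia rose with Foxj1. Of 25 tested, 16 were called higher and 0 lower, where 11.2% and 9.31% of all genes were. Their median log2 fold change was 1.77 beside 0.0026 over all genes. Groups did not overlap for 6 of the 25, where 19.7% of all genes had no overlap. A gene can pass the filter through a single group. Dnali1 and Tekt1 passed through the bleomycin libraries alone, with at most 1.34 and 2.01 CPM in the naive ones. For such genes a call of lower was hardly possible, so the counts by direction and the median are not free of the filter. How many of the 25 passed this way was not counted. The 5 named by lowest p were Dnali1, Ccdc40, Dnah9, Dnah11 and Cfap44. Dnali1, an axonemal dynein light chain, went from 0.773 ± 0.442 to 8.40 ± 4.81 CPM (log2 fold change 3.38, SE 0.62, edgeR adjusted p 0.000661), and Ccdc40, needed to assemble dynein arms, from 3.95 ± 1.99 to 16.3 ± 10.9 CPM (2.05, SE 0.46, adjusted p 0.00385). The dynein heavy chains Dnah9 and Dnah11 rose by 2.15 and 2.26 on the log2 scale, and the axonemal protein gene Cfap44 by 2.13. In Dnah9 the bleomycin libraries had 28.0, 66.1, 8.05, 21.97 and 14.1 CPM against 4.36 to 8.33 in the naive ones. Bleomycin 2 was highest for all 5, and bleomycin 3, at 8.05 CPM, lay within the naive range of Dnah9.

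Some ciliated genes did not pass the test. Tppp3, the most abundant of them, had 45.2 ± 7.50 and 59.6 ± 16.5 CPM (log2 fold change 0.41, SE 0.18, edgeR adjusted p 0.122). The RFX factor genes, which are active in many cells, had log2 fold changes of -0.27 (Rfx2, adjusted p 0.561) and -0.39 (Rfx3, adjusted p 0.183). The count of 16 depended on the test and on single libraries. It was 17 by DESeq2 and 4 by limma-voom (Ccdc40, Dnah5, Dnali1 and Tekt1), 9 without naive 4, 9 without bleomycin 2, and 5 without bleomycin 1 and 2 together (Ccdc40, Cdhr3, Dnah9, Dnali1 and Tekt1), with Rfx3 then called lower (-0.61, adjusted p 0.0441).

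**Figure D3:**
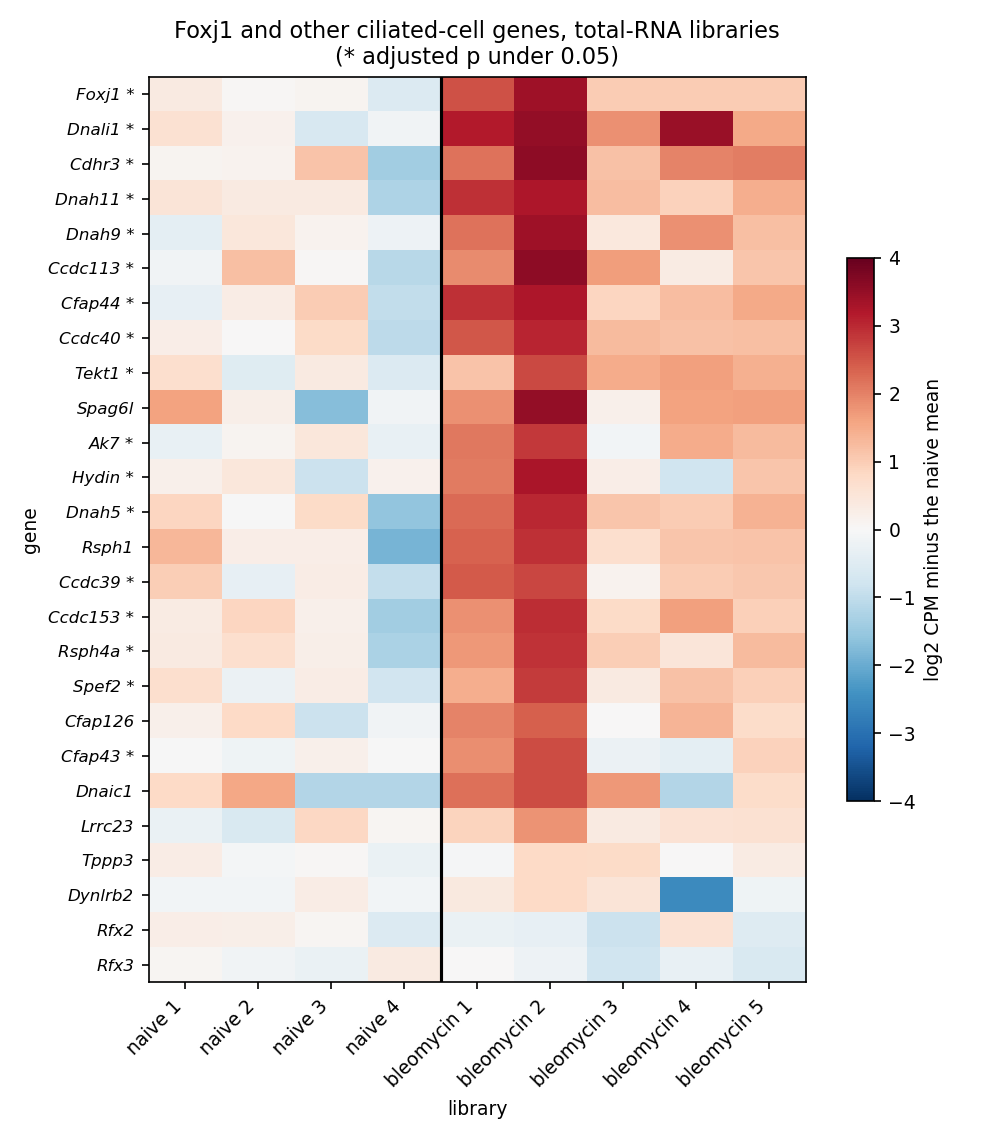
Foxj1 and 25 other ciliated-cell genes (rows) in the 9 total-RNA libraries (columns), coloured by log2 CPM minus the naive mean; a star marks an adjusted p under 0.05. Bleomycin 1 and 2 are the darkest columns, at 2.56 and 3.39 for Foxj1 against 1.02 to 1.03 in bleomycin 3 to 5, and the rows of Rfx2 and Rfx3, at the bottom, are not starred.

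Promoter letters of 3 of the ciliated genes that rose are shown because they hold the motif of RFX factors, GTTGCNA, within 250 bases before the annotated start. They were chosen after their values were seen. The motif, searched on both strands in the RefSeq table, lay in 5 of the 15 matched genes that rose (Cdhr3, Cfap44, Dnah5, Hydin and Tekt1), in 11 of all 34 matched ciliated genes, in 0 of the 5 matched markers and in 10.1% of all genes. The longer X-box palindrome of RFX factors, in which GTTGCNA recurs on both strands, lay in Cfap44 alone of the 34 and in 0.13% of all genes. Capitals mark the matches in Cfap44 (chr16:44394739-44394798, plus strand), Dnah5 (chr15:28203601-28203660, plus strand) and Tekt1 (chr11:72361883-72361942, minus strand), and each 60-base stretch reads toward the start.
Cfap44: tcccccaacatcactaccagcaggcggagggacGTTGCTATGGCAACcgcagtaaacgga
Dnah5: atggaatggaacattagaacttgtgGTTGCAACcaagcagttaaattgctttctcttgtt
Tekt1: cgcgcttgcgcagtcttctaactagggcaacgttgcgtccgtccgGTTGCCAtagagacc
Dnah5 and Cfap44 each hold 2 overlapping or adjoining copies, 1 on each strand, and Tekt1 holds 1. A match is a description of the letters and shows no binding.

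The club-cell markers were not called after bleomycin. Scgb1a1 stood at 778, 506, 773 and 361.5 CPM in naive 1 to 4 and at 692, 680.5, 384, 454 and 469.6 CPM in bleomycin 1 to 5. All 5 bleomycin libraries lay within the naive range. The means were 604 ± 206 and 536 ± 141 CPM, and the log2 fold change was -0.17 (SE 0.21, edgeR adjusted p 0.610). Without bleomycin 1 and 2 it was -0.47 (adjusted p 0.0967). Set against Sftpc, Scgb1a1 had 35.8 and 29.1 counts per 1000 in bleomycin 1 and 2, above the naive range of 9.67 to 20.9, and 9.96, 15.4 and 14.9 in bleomycin 3 to 5, within it. Sftpc itself was lowest in bleomycin 1 and 2, and Foxj1 per 1000 counts of Scgb1a1 was 31.0 and 56.8 there, 15.2 to 18.6 in bleomycin 3 to 5 and 4.66 to 6.76 in the naive libraries.

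Cyp2f2 had 104, 103, 112 and 73.6 CPM in the naive libraries and 135, 155, 77.1, 82.0 and 96.1 in the bleomycin libraries. Bleomycin 1 and 2 lay above all naive libraries and the other 3 within their range. The log2 fold change was 0.15 (SE 0.19, edgeR adjusted p 0.614) and -0.20 without bleomycin 1 and 2. Scgb3a2 had 14.4, 12.8, 11.1 and 6.86 CPM in naive 1 to 4 and 6.88, 22.02, 6.19, 8.04 and 14.2 in bleomycin 1 to 5, from counts of 23 to 122. Its log2 fold change was 0.04 (SE 0.35, adjusted p 0.954), and its sign turned without bleomycin 2 (-0.33) and without bleomycin 1 and 2 (-0.23).

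Muc5b and Scgb3a1 had higher means after bleomycin but were not called. Muc5b stood at 4.70, 3.85, 6.91 and 3.28 CPM in the naive libraries and at 11.6, 19.3, 5.27, 4.02 and 5.70 in the bleomycin libraries. Its high libraries were bleomycin 1 and 2, as for Foxj1, and the other 3 lay within the naive range (log2 fold change 0.98, SE 0.45, edgeR adjusted p 0.127). Without bleomycin 2 the value was 0.51, and without bleomycin 1 and 2 it was 0.12 (adjusted p 0.866). Scgb3a1 rested on few reads, 2, 1, 9 and 5 in naive 1 to 4 and 4, 23, 42, 15 and 12 in bleomycin 1 to 5. Its high libraries were bleomycin 2, 3 and 4, at 4.15, 6.504 and 4.64 CPM against 0.214 to 2.70 in the naive libraries. The log2 fold change was 1.56 (SE 0.67, adjusted p 0.105), and without bleomycin 1 it was 1.79 (adjusted p 0.0450). Without bleomycin 1 and 2 the gene fell below the filter. Genes with under 1000 exon bases, the class of the 3 secretoglobins, deviated from the naive mean by a median of 0.37 and 0.35 (log2) in bleomycin 2 and 3 and by -0.20 in bleomycin 1. The part of length in these values was not tested.

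The markers below the filter were seen in single libraries. Bpifa1 counted 3, 34, 3 and 5 reads in naive 1 to 4 and 3, 42, 35, 4 and 4 in bleomycin 1 to 5, so that 1 naive and 2 bleomycin libraries held most of them. Reg3g counted 2, 0, 1 and 3 reads in the naive libraries and 0, 29, 8, 0 and 12 in the bleomycin libraries. In bleomycin 2 that is 5.23 CPM, while bleomycin 1 and 4 had none, and a count of 0 allows up to 0.771 and 0.909 CPM there. Krt5 had 1 read in naive 1 and 5 in bleomycin 2 and none in the other 7 libraries. Trp63 had 1, 10, 1 and 1 reads in naive 1 to 4, 2 in bleomycin 1 and none in bleomycin 2 to 5. Krt5 and Trp63 thus had 0 to 10 reads per library, and differences between the groups were not detectable at this depth.

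**Figure D4:**
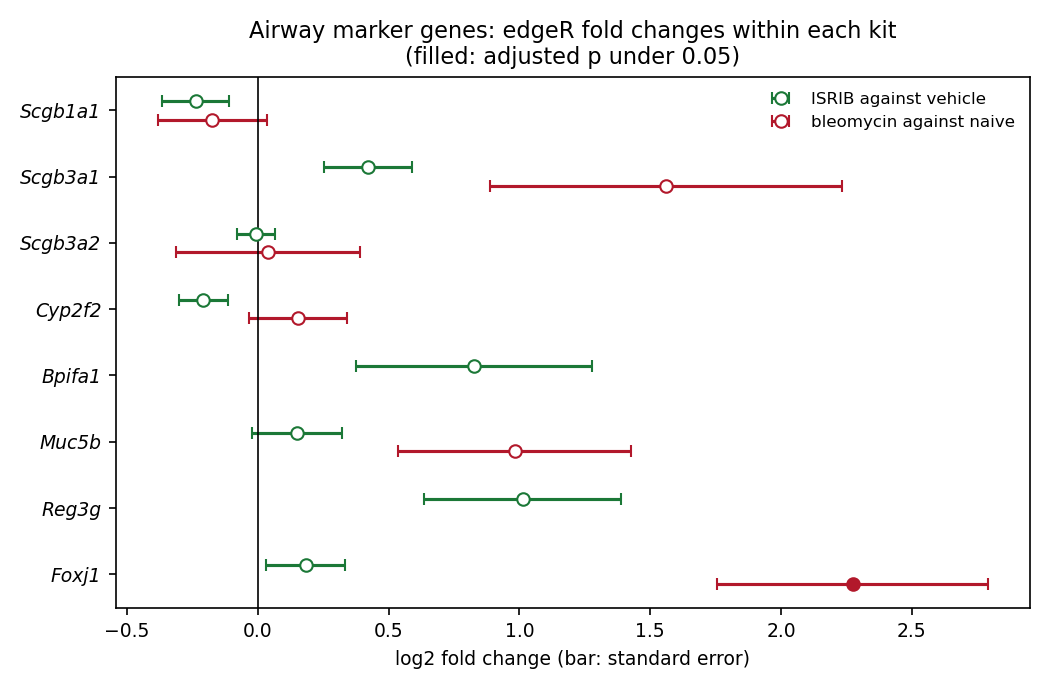
Log2 fold change with its standard error (horizontal axis) of each airway marker tested, for ISRIB against vehicle (green) and bleomycin against naive (red), each fitted within its kit; filled points passed an adjusted p of 0.05. Foxj1 after bleomycin, at 2.27, is the filled point, and Bpifa1 and Reg3g have a value for ISRIB alone because they fell below the filter in the other table.

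Side by side, Foxj1 had a log2 fold change of 0.18 after ISRIB and 2.27 after bleomycin, and Scgb1a1 had -0.24 and -0.17. The 2 experiments used different kits and share no library, and the difference between their effects was not tested.

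Other secretory airway genes went both ways after bleomycin. Of 17 tested, 6 were called higher and 4 lower, where 11.2% and 9.31% of all genes were. Their median log2 fold change was -0.10. Those that fell were the detoxifying or lipid-handling enzyme genes Pon1 (38.8 ± 9.83 to 3.17 ± 1.71 CPM), Aox3 (529 ± 39.9 to 175 ± 46.8), Ces1d (361 ± 22.03 to 182 ± 50.8) and Cbr2 (1194 ± 104 to 596 ± 208). AT2 cells also express several of these, so the list is not specific to airway cells. Retnla, a secreted resistin-like protein that type 2 inflammation induces, rose from 2.49 ± 1.19 to 39.6 ± 21.02 CPM (log2 fold change 3.97, SE 0.42, edgeR adjusted p 3.20e-06). The others called higher were Aldh1a1, Gsto1, Pigr, Msln and Kcnk2, named after their values were seen. Msln passed the filter through the bleomycin libraries alone, with at most 1.71 CPM in the naive ones. With 1 library left out the call of Pigr ended without naive 2, 3 or 4 or bleomycin 2, 3 or 5, that of Kcnk2 without naive 1 or 4 or bleomycin 4, and that of Gsto1 without naive 2 or bleomycin 2. Limma-voom did not call Gsto1, Msln or Kcnk2, DESeq2 did not call Kcnk2, and Pigr was not called with the replicate block (adjusted p 0.114). Without bleomycin 1 and 2 Gsto1 was not called (0.0764). Among 3 other basal genes tested, Sfn, a 14-3-3 protein that p53 induces, rose from 33.6 ± 5.37 to 69.6 ± 22.1 CPM, and Fgfbp1 fell from 14.8 ± 2.55 to 4.94 ± 1.30 CPM. The keratin genes of the list fell below the filter.

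Of 10 tested genes listed for distal inflammatory secretory cells, 9 were called higher and 0 lower, where 11.2% and 9.31% of all genes were. The groups did not overlap for 9, where 19.7% of all genes had no overlap. They include Lcn2, an iron-scavenging defence protein, from 186 ± 22.4 to 1043 ± 309 CPM (log2 fold change 2.49, SE 0.19, edgeR adjusted p 1.44e-07), and Lrg1, from 78.7 ± 12.1 to 295 ± 44.97 CPM (1.90, SE 0.14, adjusted p 1.44e-07). The antiprotease gene Slpi (6.499 ± 1.61 to 17.6 ± 6.54 CPM) and the ceruloplasmin gene Cp (8.00 ± 2.23 to 32.4 ± 20.98 CPM) rose too. Cd177 had 2 reads in all naive libraries and 490.0 in the bleomycin libraries. Its levels were 19.6, 61.2, 2.32, 6.81 and 6.33 CPM in bleomycin 1 to 5, highest in bleomycin 1 and 2. Scaled by the summed effective library sizes, the ratio of the pooled reads was 139 (95% interval 38.2 to 1149, counting error only). That interval leaves out the spread between libraries. Without bleomycin 1 and 2, 9 of 9 tested were called higher. Cd177 and Orm1 passed the filter on low counts through the bleomycin libraries alone, with at most 0.335 and 0.427 CPM in the naive ones. For both a call of lower was hardly possible, so the counts of genes called and without overlap are not free of the filter. The list summed to 1014 to 1110 CPM in the naive libraries and to 2207, 3228, 2521, 2050 and 2309 in bleomycin 1 to 5. It was thus read without injury too, in libraries sorted for AT2 cells, and which cells hold it was not tested.

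Fibroblast and AT2 genes stood apart in the same bleomycin libraries as Foxj1, while endothelial, alveolar type 1 and macrophage genes had another order. Fibroblast genes (10) summed to 60.8 and 125 CPM in bleomycin 1 and 2, to 18.6, 31.6 and 27.1 in bleomycin 3 to 5 and to 5.66 to 15.8 in the naive libraries. Of 4 tested, 3 were called higher, where 11.2% of all genes were. These were the collagen genes Col1a1 (1.35 ± 1.22 to 20.1 ± 20.02 CPM), Col1a2 and Col3a1, and Lum was at 0 in every library. Col1a2 had at most 2.01 CPM in the naive libraries and passed the filter through the bleomycin ones alone. DESeq2 called 2 of the 4 and limma-voom 1, and the call of Col1a2 ended without any 1 of the naive libraries (adjusted p 0.0589 to 0.101). The other ciliated genes summed to 451 and 773 CPM in bleomycin 1 and 2, 232 to 267 in bleomycin 3 to 5 and 136 to 198 in the naive libraries. AT2 genes (12) summed to 56650.0 and 66880.0 CPM in bleomycin 1 and 2 and to 86210.0 to 104300.0 in the other 3, beside 92910.0 to 102300.0 in the naive libraries. Alveolar type 1 genes (10) summed to 2126 to 2645 CPM after bleomycin and 1396 to 1621 in naive libraries. The sums were 2645, 2189, 2478, 2566 and 2126 CPM in bleomycin 1 to 5. Of 9 tested, 7 were called higher, beside the same 11.2% of all genes. The 5 with the lowest p were Pdpn, the podoplanin gene (1.34 ± 0.92 to 19.04 ± 6.83 CPM), Akap5 (61.7 ± 4.67 to 264 ± 115), Clic5 (64.7 ± 4.78 to 122 ± 11.1), Hopx (7.26 ± 0.89 to 17.5 ± 4.31) and Ager (774 ± 110.2 to 1167 ± 146). Pdpn, with at most 2.38 CPM in the naive libraries, also passed the filter through the bleomycin ones alone. Endothelial genes (9) summed to 24.3 to 68.4 CPM against 19.4 to 34.6, and Cdh5 alone of 5 tested was called, higher, with 0 calls by limma-voom. Endothelial genes were lowest in bleomycin 1 and highest in bleomycin 5. The Cdh5 call ended with the replicate block (0.0822 adjusted) and without naive 3, naive 4 or bleomycin 5 (adjusted p 0.0530 to 0.0675), and Kdr, the most abundant, had 6.97 ± 0.28 and 9.00 ± 6.91 CPM. Macrophage and monocyte genes (14) overlapped, at 15.6 to 24.4 and 13.1 to 28.9 CPM, with Marco and C1qa at 0 and Plet1 the highest (10.7 ± 5.72 and 10.3 ± 5.05 CPM). No gene of the neuroendocrine, tuft, neutrophil, lymphocyte, mesothelial or erythroid lists was called by edgeR. Only the neuroendocrine, tuft and lymphocyte lists had a gene above the filter, 1 each, and 0 had an unadjusted p under 0.05. These were Cplx2 (4.40 ± 1.73 and 5.77 ± 1.51 CPM), Dclk1 (40.3 ± 7.03 and 34.6 ± 7.32) and Cd79b (5.15 ± 2.94 and 5.96 ± 2.85). Of 12 AT2 genes 3 were called higher (Sftpd, Napsa and Cd74) and 1 lower (Etv5), where 11.2% and 9.31% of all genes were. With 1 library left out the call of Napsa ended in every case but bleomycin 1, that of Etv5 without naive 1, 2 or 4, and that of Sftpd without naive 2. Etv5 was also not called with total-count scaling (adjusted p 0.0716) or without bleomycin 1 and 2 (0.0550), nor Napsa with the replicate block (0.0849). The part of other cell types in the Foxj1 result was not tested.

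**Figure D5:**
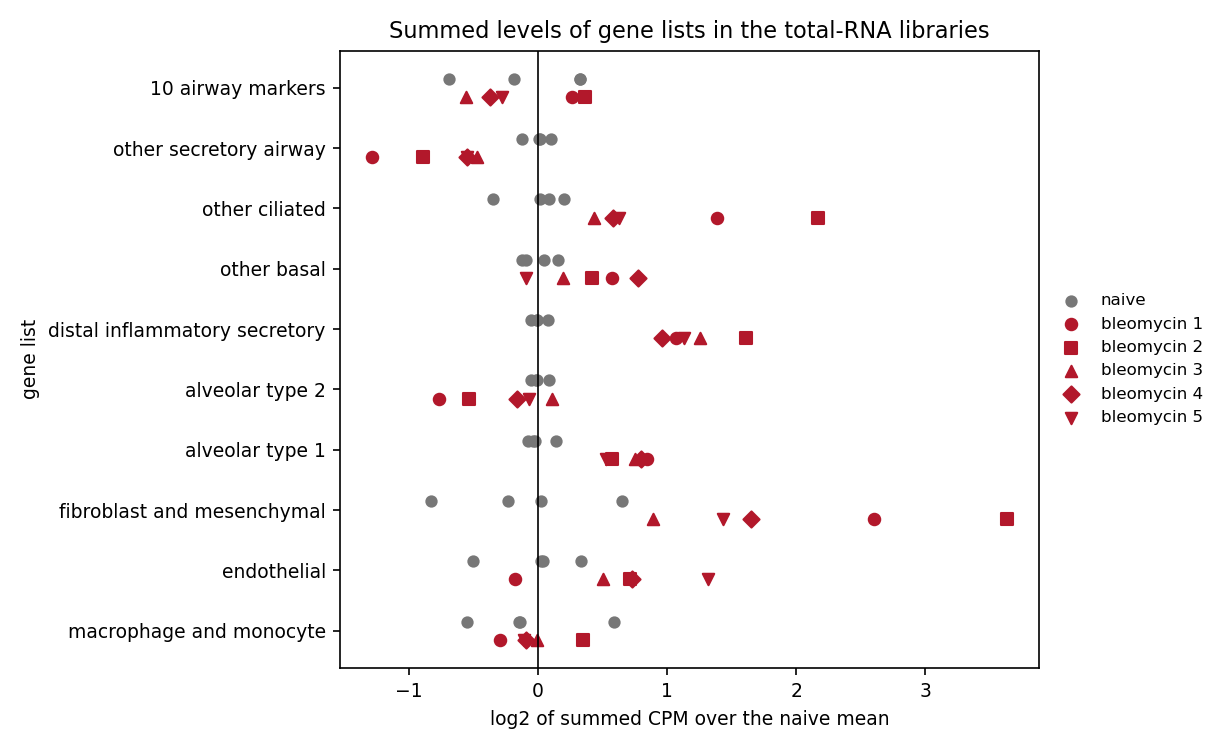
Summed CPM of 10 gene lists in each total-RNA library, as log2 of the ratio to the naive mean (horizontal axis); grey points are naive libraries and red symbols the 5 bleomycin libraries. Bleomycin 1 and 2 are rightmost for ciliated and fibroblast genes and leftmost for alveolar type 2 genes, while the 10 airway markers, whose sum is mostly Scgb1a1, overlap between the groups (492 to 933 CPM after bleomycin, 452 to 910.4 naive).

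By likeness over the 9 total-RNA libraries, among 9262 genes, Scgb1a1 was nearest to Drc7 (r = 0.95), Dnah5 (0.95), Ccdc39 (0.93), Col3a1 (0.93) and Actr1a (0.92). The first 3 belong to motile cilia and Col3a1 is a fibroblast collagen. Cyp2f2 had r = 0.86 with Scgb1a1, Muc5b 0.77 and Foxj1 0.76, while Scgb3a1 had -0.19. Foxj1, added after the data were seen, had r = 0.94 with both Cyp2f2 and Muc5b, and among its nearest genes were Nek5 (0.96), Armc8 (0.96), Dcps (0.95) and Evpl (0.95). These correlations describe deviations within groups, and for Foxj1 bleomycin 2 lay farthest from its group mean. Reg3g fell below the filter in this table and was given no likeness.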

How the data were processed

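RNA-seq of sorted AT2 cells was deposited as 2 tables of raw read counts per Ensembl gene ID, 1 per library kit, with no pooling of replicates. The submitters' processing notes name bcl2fastq 2.19.1, FastQC, Trimmomatic 0.36, STAR 2.6.0, HTSeq 0.11.2 and the build mm10. No source at hand states the annotation or the strand setting. Of the IDs, 42546 were matched to GENCODE M21 symbols.

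Each comparison was fitted within its kit, on the groups of the labels: filterByExpr (minimum count 10, total 15), TMM scaling and the two-sided quasi-likelihood test of edgeR 4.0.16 (R 4.3.3), with Benjamini-Hochberg adjustment over all genes tested and a threshold of 0.05. CPM use effective library sizes, correlations log2 CPM with a prior count of 2. The SE is the absolute log2 fold change of the fit divided by the root of F, taken before edgeR shrinks the printed value. DESeq2 1.42.0, limma-voom (limma 3.58.1), total-count scaling, no filter, a replicate block and leaving out libraries were alternatives. The procedure was tested on simulated data. Depth (3295257 to 15727139 counts) limits genes of few reads.

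The markers and the 15 other gene lists were chosen with earlier results of these data known. All 10 markers are named. From the other lists, genes called with a mean of at least 5 CPM are named, at most 5 per list and comparison by lowest p, plus the most abundant gene of a list, and for Scgb1a1 and Reg3g the 5 genes most alike. Other names were chosen after their values were seen. Muc16, Dnai1 and Nov were not matched in the tables. One gene near Foxj1 by likeness is not reported here.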

Additional observations from a re-analysis of the deposited data

Results flagged for a closer look

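The summed level of the other ciliated-cell genes was 179 CPM in vehicle 4, and the nearest of the other 3 vehicle libraries was at 195 CPM. That gap was 0.919 of the range of the group, past the 95% critical value for a gap in 4 samples. Chance puts about 1 group in 20 past that value. The same rule was run on every tested marker and on several list sums in each group, and no other value was flagged.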

How the results depend on the processing

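Over the alternatives run on the tested markers, 172 values kept direction and side of the threshold, 17 changed sign, 5 passed the threshold and 2 no longer did. The cause of each change was not tested. After ISRIB the count of genes called was 265 and became 648 without the filter on low counts, 408 by DESeq2, 151 without ISRIB 2 and 4, and 86 to 269 when 1 library was left out (86 without vehicle 1, 102 without vehicle 2, 159 without ISRIB 4). The count of markers called became 4 without the filter. After bleomycin it was 1 and became 0 by limma-voom, 0 without bleomycin 1 and 2, and 1 to 2 when 1 library was left out (2 without bleomycin 1, by Scgb3a1). The 16 ciliated genes called higher became 4 by limma-voom, 5 without bleomycin 1 and 2, and 9 to 19 when 1 library was left out (9 without naive 4 or without bleomycin 2). Sign changes on the log2 scale were not only in values near 0, and the value farthest from it was Scgb3a2 at -0.33 without bleomycin 2. After ISRIB, Scgb1a1 was 0.028 and Muc5b -0.0027 without ISRIB 2 and 4, and Muc5b ranged from -0.016 to 0.27 with 1 library left out. Scgb3a2 was 0.0087 with total-count scaling, 0.10 without ISRIB 2 and 4, and -0.085 to 0.032 with 1 library left out (0.03 without vehicle 2, 0.032 without ISRIB 2, 0.0037 without ISRIB 3, 0.03 without ISRIB 4). After bleomycin, Scgb3a2 was -0.058 by limma-voom, -0.18 with the replicate block, -0.23 without bleomycin 1 and 2, and -0.33 to 0.21 with 1 library left out (-0.14 without naive 4, -0.04 without bleomycin 5). Cyp2f2 was -0.20 without bleomycin 1 and 2 and -0.0038 to 0.27 with 1 library left out. Replicate numbers are shared between groups, but deviations of same-numbered libraries correlated only from -0.11 to 0.08, so they were not taken as pairs. With the number as a block, 277 genes were called after ISRIB and 2099 after bleomycin (4 naive and 4 bleomycin libraries) against 265 and 2304 without it, and Foxj1 was 2.25. Reads limit Scgb3a1, Reg3g, Bpifa1, Krt5 and Trp63 in the total-RNA libraries.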
